A study of Mus musculus with 60 samples.

Results

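Amino acid supply and tRNA charging genes were followed as 33 named genes in organoids from the mouse duodenum, the uppermost segment of the small intestine. They were taken by symbol from the authors' deposited table, in which all 33 were found among 24905 genes with a value in every comparison (methionyl-tRNA synthetase under its older symbol Mars). By role they are 9 biosynthetic enzymes, 4 amino acid transporters and 20 genes for tRNA synthetase subunits of the cytosol, of which Gars and Kars also serve mitochondria. The rule lists symbols and uses no measured value, though it was written with earlier results of these data known.

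The degron arm held HOM CDK2-dTAG, HOM CDK5-dTAG and WT dTAG organoids, each given 250 nM dTAG-13 or DMSO for 6 or 24 h. The knockout arm held HOM CDK2 cKO and WT cKO organoids, each given 1 uM 4-OHT (4-hydroxytamoxifen) or DMSO for 24 or 48 h. They are called CDK2-dTAG, CDK5-dTAG, WT-dTAG, CDK2-cKO and WT-cKO below. dTAG-13 is a small molecule that brings a dTAG-fused protein to a ubiquitin ligase for degradation, and 4-OHT commonly switches on a tamoxifen-dependent Cre recombinase. The labels give 3 samples for each of 20 groups and do not say whether WT-cKO organoids carry a Cre, which cells express it, or whether replicates came from separate cultures or animals. The p-values may therefore measure technical spread only. Protein was not measured, and RNA was read by a 3′ mRNA kit.

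Mammalian cells sense a shortage of amino acids through uncharged tRNA, which activates the kinase GCN2, encoded by Eif2ak4. GCN2 phosphorylates the initiation factor eIF2α, most translation slows, and translation of the transcription factor ATF4 goes up. ATF4, with C/EBP family partners, binds composite sites in genes that make, import and charge amino acids, among them many of the 33 genes described here. Other kinases feed the same route, which is called the integrated stress response.

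The data are log2 fold changes with p-values for 13 comparisons, each labelled as 3 samples against 3. They comprise 3 of later against earlier culture in DMSO, 6 of dTAG-13 against DMSO and 4 of 4-OHT against DMSO. No level and no value per sample was analysed here, so depth is unknown. A standard error was read back from each fold change and its p-value. For the 33 genes the median of this error over comparisons ran from 0.133 for Gars to 0.482 for Aldh1l2, with a middle value of 0.186, against 1.17 over all genes. All 33 were among the 9526 genes called well measured here, with a median error of at most 0.5. All 12 markers of duodenal epithelium were well measured too, against 0 of 5 fibroblast, 0 of 4 immune and 1 of 3 endothelial markers.

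The promoters of these genes carry the composite site often, and they are shown because the values below are described for genes with and without it. RefSeq windows on build GRCm38.p6, from 250 bases before to 50 after the start, matched 23 of the 33 genes. The motif TGATGNAA, searched on both strands and including its form TGATGCAA, occurred in 8 of these 23 genes (34.8%), against 4.51% of 27025 genes with a window. TGATGCAA alone occurred in 6 of the 23 (26.1%), against 1.03% of all. The 8 genes were the enzymes Asns and Pycr1, the transporter Slc7a11 and the synthetase genes Aars, Gars, Iars, Tars and Yars. A match describes letters in a window and is not evidence of binding. The 120 bases before the start of 5 of them follow, 5′ to 3′ on the strand of the gene, with matches on either strand in capitals.
Asns, chr6:7693210-7693329, minus strand: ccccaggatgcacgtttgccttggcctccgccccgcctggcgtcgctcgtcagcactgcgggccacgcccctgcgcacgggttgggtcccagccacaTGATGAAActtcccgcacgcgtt
Pycr1, chr11:120643749-120643868, minus strand: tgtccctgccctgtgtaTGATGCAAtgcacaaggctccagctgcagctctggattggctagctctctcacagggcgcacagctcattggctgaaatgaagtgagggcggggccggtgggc
Slc7a11, chr3:50443614-50443733, minus strand: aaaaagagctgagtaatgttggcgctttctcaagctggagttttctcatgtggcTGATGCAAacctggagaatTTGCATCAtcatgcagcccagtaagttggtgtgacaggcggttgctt
Gars, chr6:55037881-55038000, plus strand: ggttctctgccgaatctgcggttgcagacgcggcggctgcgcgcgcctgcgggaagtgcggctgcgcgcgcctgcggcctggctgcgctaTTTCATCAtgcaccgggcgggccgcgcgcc
Tars, chr15:11399659-11399778, minus strand: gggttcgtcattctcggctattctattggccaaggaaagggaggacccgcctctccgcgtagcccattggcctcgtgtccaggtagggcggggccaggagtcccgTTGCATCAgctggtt
The Asns match began 23 bases before the start (position -23), and that of Pycr1 lay farther out, at -103. Slc7a11 held a pair on opposite strands, at -66 and -47.

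Across all 13 comparisons no gene of the 33 passed the authors' FDR p under 0.05, that is 0 of 429 values in the authors' deposited table. At an unadjusted p under 0.05, 8 of the 429 values were higher and 9 lower, where 1.41% of the values of well measured genes were higher and 1.32% lower. These 17 sat in 4 comparisons: culture time in CDK2-dTAG and in WT-dTAG, and 4-OHT at 48 h in CDK2-cKO and in WT-cKO. The other 9 comparisons held none. The map of all fold changes shows where the values sat.

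**Figure D1:**
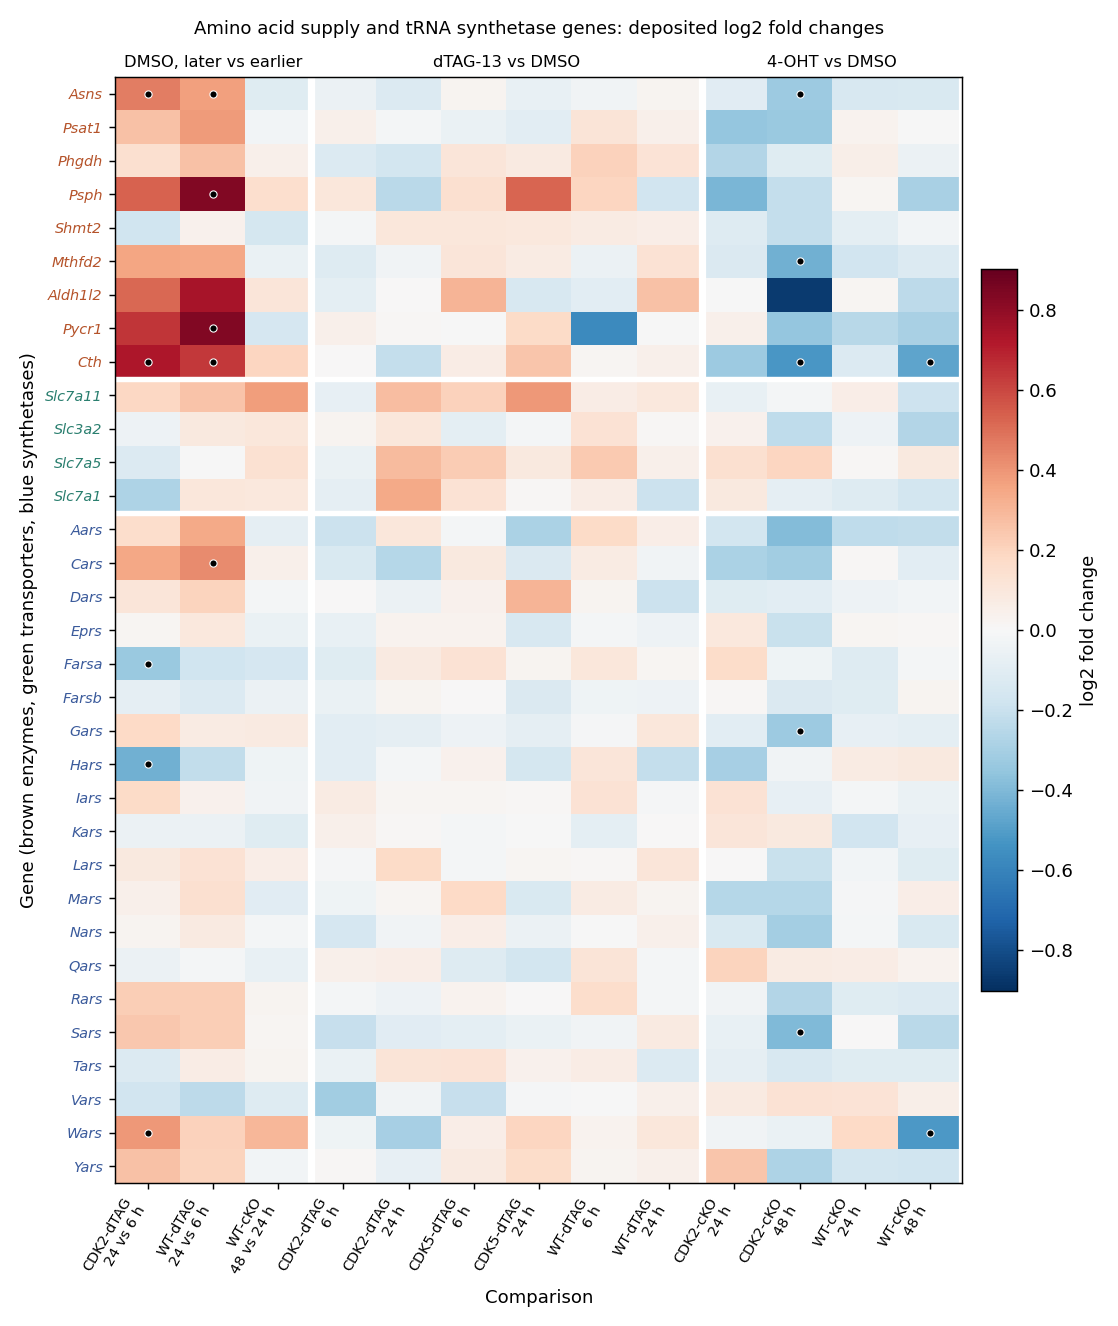
Log2 fold changes of the 33 genes (vertical axis, coloured by role) in the 13 comparisons (horizontal axis) from the authors' deposited table; red is higher and blue lower in the condition named first or treated, and a dot marks an unadjusted p under 0.05. The deepest red lies in the enzymes at 24 h over 6 h of DMSO, where Psph stood at 0.84 in WT-dTAG, and the deepest blue in CDK2-cKO at 48 h of 4-OHT, where Aldh1l2 stood at -0.86.

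The medians of the biosynthetic enzymes were highest at 24 h over 6 h of DMSO in the degron arm, among the 13 comparisons. In CDK2-dTAG organoids, 8 of the 9 enzymes had a positive log2 fold change at 24 h over 6 h in the authors' deposited table, with a median of 0.46. In WT-dTAG organoids all 9 were positive in the authors' deposited table, with a median of 0.38. The median of the 9526 well measured genes was -0.02 in CDK2-dTAG and -0.00 in WT-dTAG in that table. The 20 synthetase genes stood lower, with 13 of 20 positive and a median of 0.07 in CDK2-dTAG, and 14 of 20 and 0.09 in WT-dTAG, in the authors' deposited table. In whole organoids, fewer cells of a type and less RNA per cell cannot be told apart. Over all 33 genes the authors' deposited table gave 22 positive values in CDK2-dTAG and 26 in WT-dTAG, each with a median of 0.15. None of the 33 passed FDR p under 0.05 in either comparison, where 0.0361% of all genes did in CDK2-dTAG and 0.0803% in WT-dTAG. At an unadjusted p under 0.05, 3 of the 33 were higher in CDK2-dTAG, where 3.03% of well measured genes were, and 2 were lower, where 2.55% were. In WT-dTAG 5 of the 33 were higher at that p, where 3.99% of well measured genes were, and 0 were lower, where 2.34% were.

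Asns, asparagine synthetase (chr6:7675169-7693254, minus strand), makes asparagine from aspartate and glutamine and is a classic ATF4 target. Its log2 fold change at 24 h over 6 h in the authors' deposited table was 0.46 in CDK2-dTAG (95% interval 0.13 to 0.79), which is 1.37-fold, with an unadjusted p of 0.00701. The authors' deposited table gave 0.37 in WT-dTAG (0.07 to 0.66), or 1.29-fold, with an unadjusted p of 0.0156. Cth, cystathionine gamma-lyase (chr3:157894248-157925077, minus strand), releases cysteine at the end of transsulfuration. Cth stood at 0.73 in CDK2-dTAG (0.31 to 1.14; FDR p 0.494) in the authors' deposited table. In WT-dTAG it stood at 0.63 (0.26 to 1.01), with an FDR p of 0.322, the smallest of the 33 genes in any comparison of the authors' deposited table. Both intervals of both genes lay above 0, and neither gene passed the adjustment over all genes.

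Serine is made from glycolytic 3-phosphoglycerate by the enzymes of Phgdh, Psat1 and Psph, in that order. In the authors' deposited table Phgdh stood at 0.15 in CDK2-dTAG and 0.26 in WT-dTAG at 24 h over 6 h. Psat1 was listed at 0.26 in CDK2-dTAG and 0.38 in WT-dTAG in the authors' deposited table. Psph, the last step, was listed at 0.53 in CDK2-dTAG (-0.14 to 1.19) and 0.84 in WT-dTAG (0.24 to 1.43; unadjusted p 0.00587) in the authors' deposited table. The values were positive at all 3 steps in both genotypes and highest at the last, with intervals that overlapped between steps. Pycr1, which makes proline in mitochondria, stood at 0.65 in CDK2-dTAG (-0.08 to 1.37) and at 0.83 in WT-dTAG (0.20 to 1.47; unadjusted p 0.0102) in the authors' deposited table. Serine carbon passes into mitochondrial folate metabolism through Shmt2, Mthfd2 and Aldh1l2. Mthfd2 stood at 0.36 in CDK2-dTAG and 0.35 in WT-dTAG, and Aldh1l2 at 0.52 in CDK2-dTAG and 0.74 in WT-dTAG, in the authors' deposited table. Shmt2 stood apart at -0.18 in CDK2-dTAG and 0.04 in WT-dTAG in the authors' deposited table.

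**Figure D2:**
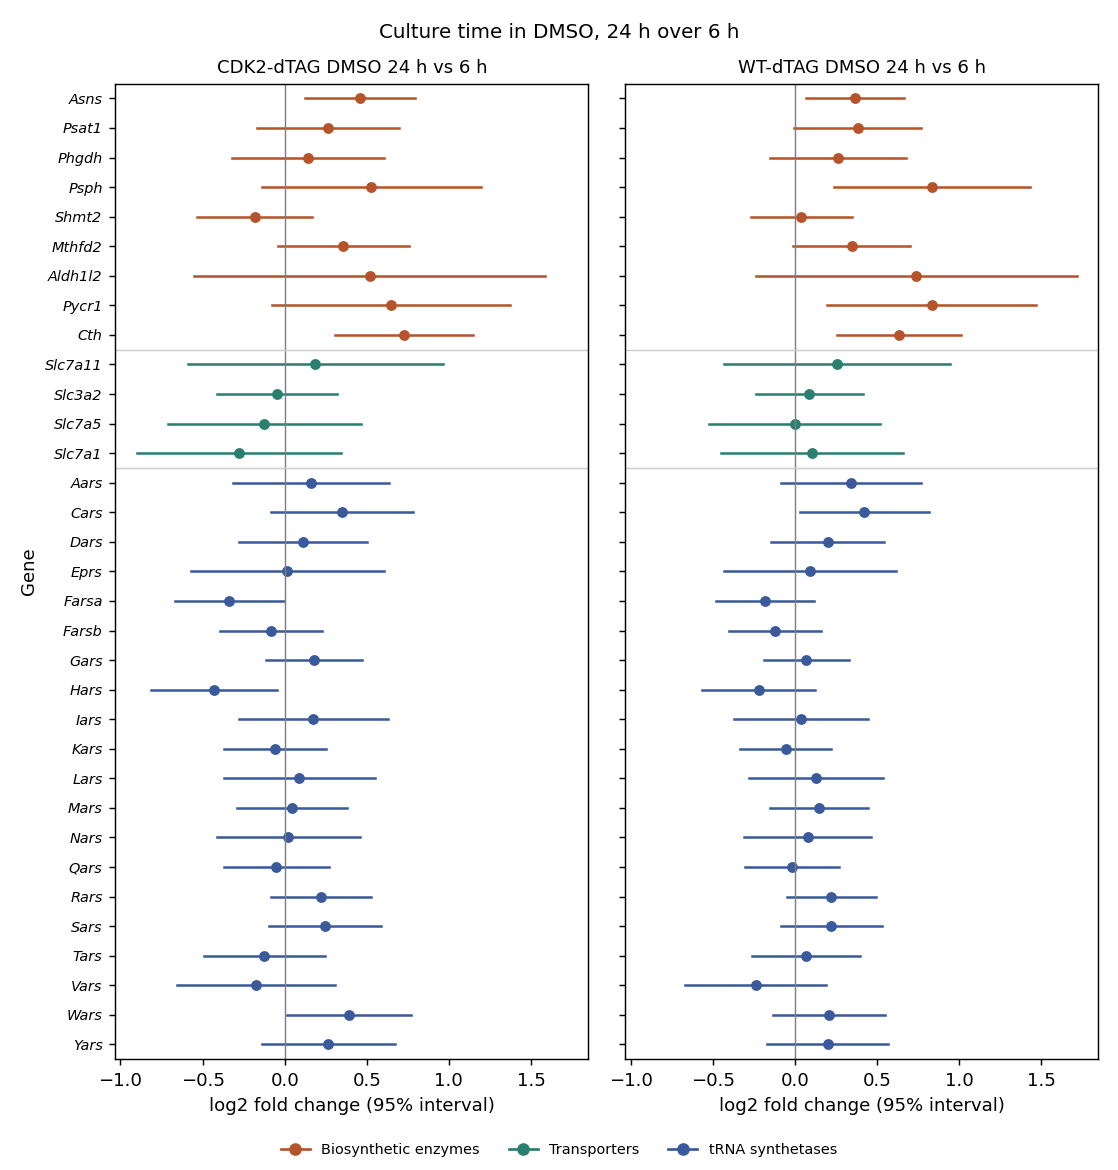
Log2 fold change of each of the 33 genes at 24 h over 6 h of DMSO, in CDK2-dTAG (left) and WT-dTAG (right); points are values of the authors' deposited table and bars 95% intervals read from its p-values. The enzymes at the top lie to the right of 0 except Shmt2 in CDK2-dTAG, and the synthetase genes spread around 0, from -0.43 for Hars to 0.39 for Wars in CDK2-dTAG.

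Transporters gave no common sign with time. Slc7a11, the cystine-glutamate exchanger subunit, was listed at 0.19 in CDK2-dTAG and 0.26 in WT-dTAG in the authors' deposited table. Slc7a5, the large neutral amino acid transporter LAT1, was listed at -0.12 in CDK2-dTAG and -0.00 in WT-dTAG in the authors' deposited table. Slc3a2, the shared heavy chain of both, stood at -0.05 in CDK2-dTAG and 0.09 in WT-dTAG, and Slc7a1, a carrier of arginine and lysine, at -0.28 in CDK2-dTAG and 0.10 in WT-dTAG, in the authors' deposited table. Among tRNA synthetase genes, which encode the enzymes that load each amino acid onto its tRNA, single genes differed in sign. The cysteine enzyme gene Cars stood at 0.35 in CDK2-dTAG (-0.08 to 0.78) and 0.42 in WT-dTAG (0.03 to 0.81; unadjusted p 0.0345) in the authors' deposited table. Wars, for tryptophan, stood at 0.39 in CDK2-dTAG (0.01 to 0.77; unadjusted p 0.0416) and 0.21 in WT-dTAG in the authors' deposited table. Hars, for histidine, stood at -0.43 in CDK2-dTAG (-0.82 to -0.05; unadjusted p 0.0276) and -0.22 in WT-dTAG in the authors' deposited table. Farsa, a subunit of the phenylalanine enzyme, stood at -0.34 in CDK2-dTAG (-0.67 to -0.00; unadjusted p 0.0473) and -0.18 in WT-dTAG in the authors' deposited table. Each of these 4 genes kept its sign in both genotypes.

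The 2 time comparisons share no labelled sample, so their values were set side by side. Across the 33 genes the log2 fold changes of CDK2-dTAG and WT-dTAG had a Pearson r of 0.886 and a Spearman rho of 0.877, and 29 of 33 had the same sign. Over the 9526 well measured genes r was 0.464, and 67.2% had the same sign. These correlations are across genes, which are not independent replicates. The difference between genotypes, CDK2-dTAG minus WT-dTAG, had a median of -0.07 over the 33 genes and passed an adjusted p under 0.05 in 0 of them, by the Benjamini-Hochberg adjustment over all genes, as in 0% of all genes. None had an unadjusted p under 0.05 for this difference, where 1.04% of well measured genes did, and its typical 95% half-width was 0.548. In both comparisons that use the CDK2-dTAG group at 6 h of DMSO, the standard errors of the 33 genes were 1.12 times those of WT-dTAG at 6 h. A comparison of 3 samples with 2 would give 1.118, and whether all 3 labelled samples of that group entered the authors' fit is not known here.

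Genes of the integrated stress response itself had higher medians at 24 h than the 33 genes as a whole. Of 18 regulators and targets of that route, 14 were positive in CDK2-dTAG with a median of 0.43, and 15 in WT-dTAG with a median of 0.57, in the authors' deposited table. Trib3, a pseudokinase induced by ATF4, stood at 1.02 in CDK2-dTAG (FDR p 0.112) and rose by 1.64 in WT-dTAG (FDR p 2.83e-08), by the authors' deposited table. Ddit3, which encodes the factor CHOP, stood at 1.21 in CDK2-dTAG (FDR p 0.303) and rose by 1.63 in WT-dTAG (FDR p 2.22e-04), by the authors' deposited table. Atf3, a stress-induced transcription factor, rose by 1.83 in CDK2-dTAG (FDR p 0.0326) and by 1.69 in WT-dTAG (FDR p 0.0126), by the authors' deposited table. Stc2, a secreted glycoprotein induced in stressed cells, stood at 0.62 in CDK2-dTAG (FDR p 0.991) and rose by 1.00 in WT-dTAG (FDR p 0.0143), by the authors' deposited table. Atf4 mRNA stood at 0.28 in CDK2-dTAG and 0.33 in WT-dTAG in the authors' deposited table. Thus 1 of the 18 passed FDR p under 0.05 in CDK2-dTAG, where 0.0361% of all genes did, and 4 in WT-dTAG, where 0.0803% did. The list of 18 was chosen with earlier results known. A test of the genotype difference passed for none of these 4 genes (adjusted p 1.00 each, Benjamini-Hochberg). With the authors' Bonferroni p-value in place of the FDR p-value, the calls of Atf3 in CDK2-dTAG (0.228) and of Atf3 and Stc2 in WT-dTAG (0.164 and 0.200) were lost. Ddit3 and Mars overlap at their 3′ ends on opposite strands, and Exosc6 lies over the 3′ end of Aars on the same strand. GENCODE also holds another overlapping entry named Ddit3. How the authors' counting treated such tags is not known here.

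The knockout arm offers another time comparison, at 48 h over 24 h of DMSO in WT-cKO organoids. There 15 of the 33 genes were positive with a median of -0.02, and the enzymes split 4 positive to 5 negative, in the authors' deposited table. None passed FDR p or an unadjusted p under 0.05, where 0% of all genes passed FDR p and 2.32% of well measured genes had an unadjusted p under 0.05. Asns stood at -0.11 and Cth at 0.19 in the authors' deposited table. Of the 18 stress response genes 13 were positive with a median of 0.18, and Ddit3 and Atf3 stood at 0.86 and 0.95, both short of FDR p under 0.05, by the authors' deposited table. Of 6 spermatid markers, of which 0 were well measured, all were positive in this comparison from 1.12 to 2.53 in the authors' deposited table. The part of these markers in the values above was not tested.

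Under dTAG-13 no gene of the 33 was called in any genotype. In CDK2-dTAG 10 of 33 were positive at 6 h with a median of -0.06, and 17 at 24 h with a median of 0.01, in the authors' deposited table. In CDK5-dTAG the authors' deposited table gave 23 positive values at 6 h with a median of 0.04, and 17 at 24 h with a median of 0.00. In WT-dTAG it gave 22 at 6 h with a median of 0.06 and 21 at 24 h with a median of 0.03 (authors' deposited table). None of the 33 had an unadjusted p under 0.05 in any of these 6 comparisons, and 0% of all genes passed FDR p under 0.05 in each. The share of well measured genes at an unadjusted p under 0.05 was 1.42% at 6 h and 1.63% at 24 h in CDK2-dTAG. In CDK5-dTAG it was 1.23% at 6 h and 3.58% at 24 h, and in WT-dTAG 0.945% at 6 h and 1.45% at 24 h. The median 95% half-width over the 33 genes was 0.361 to 0.411, and it was narrower for genes with small errors such as Gars and Asns.

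Single genes show the spread under dTAG-13. Asns ran from -0.12 in CDK2-dTAG at 24 h to 0.03 in WT-dTAG at 24 h over the 6 comparisons in the authors' deposited table. Psat1 ran from -0.09 in CDK5-dTAG at 24 h to 0.12 in WT-dTAG at 6 h, and Phgdh from -0.17 in CDK2-dTAG at 24 h to 0.21 in WT-dTAG at 6 h, in the authors' deposited table. The lowest of all was Pycr1 at -0.57 in WT-dTAG at 6 h, and the highest Psph at 0.53 in CDK5-dTAG at 24 h, neither at an unadjusted p under 0.05, in the authors' deposited table. All 4 transporters were positive in CDK2-dTAG at 24 h. Slc7a11 was listed at 0.28, Slc7a5 at 0.28, Slc7a1 at 0.34 and Slc3a2 at 0.10 in that comparison of the authors' deposited table. In WT-dTAG at 24 h Slc7a11 stood at 0.09, Slc7a5 at 0.05, Slc7a1 at -0.19 and Slc3a2 at 0.01 in the authors' deposited table, and none of the differences between genotypes had an unadjusted p under 0.05.

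The genotype differences under dTAG-13 were tested at both times. CDK2-dTAG minus WT-dTAG was negative for 30 of 33 genes at 6 h, with a median of -0.09, and negative for 16 of 33 at 24 h, with a median of 0.01. Of 9526 well measured genes this difference was negative for 4989 at 6 h and 4657 at 24 h, with medians of -0.01 and 0.01. CDK5-dTAG minus WT-dTAG was negative for 14 of 33 at 6 h and 18 of 33 at 24 h, with medians of 0.02 and -0.02. No gene passed an adjusted p under 0.05 in any of the 4 differences by the Benjamini-Hochberg adjustment, and 0% of all genes did. Only Dars, for aspartate, had an unadjusted p under 0.05 among the 33, at 24 h. It stood at 0.31 in CDK5-dTAG and -0.19 in WT-dTAG in the authors' deposited table, a difference of 0.50 (95% interval 0.01 to 0.99; adjusted p 1.00, Benjamini-Hochberg). Of well measured genes, 2.86% had an unadjusted p under 0.05 for that difference, and 1.08% for CDK5-dTAG minus WT-dTAG at 6 h. For CDK2-dTAG minus WT-dTAG the shares were 1.54% at 6 h and 1.73% at 24 h. The 30 negative values at 6 h share the CDK2-dTAG and WT-dTAG groups of that time, so they are not 30 independent observations.

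Since the DMSO groups at 6 and 24 h link both kinds of comparison, the change with time in treated organoids can be summed from 3 deposited values, though without an error. This sum is exact only if the authors used one normalization for all samples, which the sources used here do not give. At 24 h over 6 h of dTAG-13, 8 of the 9 enzymes were positive in CDK2-dTAG with a median of 0.39, and all 9 in WT-dTAG with a median of 0.47. Asns came to 0.39 in CDK2-dTAG and 0.43 in WT-dTAG, and Cth to 0.51 in CDK2-dTAG and 0.67 in WT-dTAG. At 48 h over 24 h of 4-OHT in WT-cKO the same sum was negative for all 9 enzymes, with a median of -0.11. With one normalization the DMSO terms cancel, and each sum compares only the treated groups at the later and the earlier time. Without it DMSO values may remain in the sums, which carry no test.

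Most of these genes had values below 0 at 48 h of 4-OHT. In CDK2-cKO 29 of the 33 were negative with a median of -0.21, and in WT-cKO 26 were negative with a median of -0.11, in the authors' deposited table. All 9 enzymes were negative in both genotypes, with medians of -0.34 in CDK2-cKO and -0.14 in WT-cKO in the authors' deposited table. The 20 synthetase genes had medians of -0.17 in CDK2-cKO and -0.08 in WT-cKO there, while well measured genes had -0.02 in CDK2-cKO and -0.01 in WT-cKO (authors' deposited table). None of the 33 passed FDR p under 0.05, where 0.0241% of all genes did in CDK2-cKO and 0% in WT-cKO. At an unadjusted p under 0.05, 5 of 33 were lower and 0 higher in CDK2-cKO, where 2.81% of well measured genes were lower and 1.33% higher. In WT-cKO 2 were lower and 0 higher at that p, where 2.2% of well measured genes were lower and 1.06% higher. Medians of 4-OHT values at 24 h were nearer 0, at -0.07 in CDK2-cKO with 13 of 33 positive and -0.02 in WT-cKO with 13 of 33 positive, in the authors' deposited table. Of the 9 enzymes, 8 were negative at 24 h in CDK2-cKO with a median of -0.13, and 5 in WT-cKO with a median of -0.09 (authors' deposited table). None of the 33 had an unadjusted p under 0.05 at 24 h, where at FDR p 0% of all genes passed in CDK2-cKO and 0.0642% in WT-cKO. The share of well measured genes at an unadjusted p under 0.05 was then 2.2% in CDK2-cKO and 1.43% in WT-cKO.

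Cth was the one gene with an unadjusted p under 0.05 in both genotypes at 48 h. It stood at -0.53 in CDK2-cKO (-0.91 to -0.15; unadjusted p 0.00652) and at -0.47 in WT-cKO (-0.85 to -0.10; unadjusted p 0.0136) in the authors' deposited table. The difference, -0.05, had a 95% interval of -0.59 to 0.48. Asns stood at -0.33 in CDK2-cKO (-0.62 to -0.03; unadjusted p 0.0314) and at -0.14 in WT-cKO in the authors' deposited table. Mthfd2, the mitochondrial methylene-tetrahydrofolate dehydrogenase, stood at -0.43 in CDK2-cKO (-0.79 to -0.08; unadjusted p 0.0165) and at -0.12 in WT-cKO in the authors' deposited table. Aldh1l2, which oxidises formyl-tetrahydrofolate in mitochondria, had the lowest value of the 33 and the widest interval, at -0.86 in CDK2-cKO (-1.79 to 0.07) and at -0.24 in WT-cKO, in the authors' deposited table. Its interval in CDK2-cKO included 0.

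The serine pathway genes gave no unadjusted p under 0.05 at 48 h of 4-OHT. Psat1 was listed at -0.34 in CDK2-cKO and at -0.01 in WT-cKO in the authors' deposited table. Phgdh was listed at -0.11 in CDK2-cKO and at -0.06 in WT-cKO, and Psph at -0.21 in CDK2-cKO and at -0.29 in WT-cKO, in the authors' deposited table. Transporters showed no common sign. Slc7a11 was listed at -0.02 in CDK2-cKO and at -0.19 in WT-cKO, and Slc7a5 at 0.20 in CDK2-cKO and at 0.09 in WT-cKO, in the authors' deposited table. Slc3a2 stood at -0.23 in CDK2-cKO and at -0.26 in WT-cKO, and Slc7a1 at -0.08 in CDK2-cKO and at -0.17 in WT-cKO, in the authors' deposited table. Among synthetase genes, Sars, for serine, stood at -0.40 in CDK2-cKO (-0.70 to -0.09; unadjusted p 0.0106) and at -0.24 in WT-cKO in the authors' deposited table. Gars, for glycine, stood at -0.32 in CDK2-cKO (-0.59 to -0.06; unadjusted p 0.0148) and at -0.09 in WT-cKO in the authors' deposited table. Wars stood lower in WT-cKO than in CDK2-cKO, at -0.06 in CDK2-cKO and at -0.52 in WT-cKO (-0.86 to -0.18; unadjusted p 0.00294) in the authors' deposited table. The difference for Wars was 0.46 (-0.01 to 0.93; adjusted p 1.00, Benjamini-Hochberg).

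**Figure D3:**
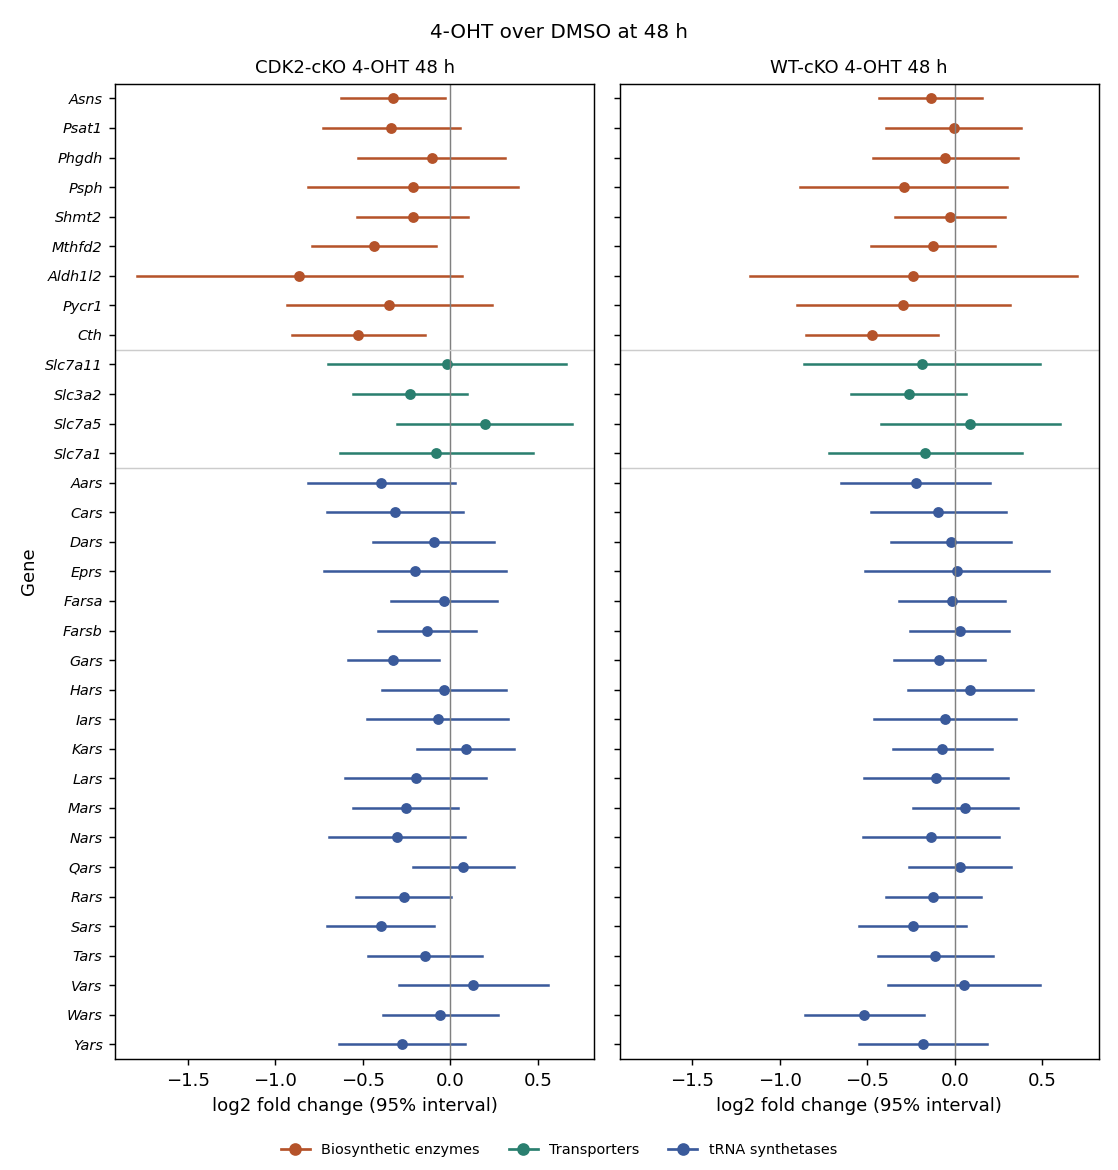
Log2 fold change of each of the 33 genes at 48 h of 4-OHT over DMSO, in CDK2-cKO (left) and WT-cKO (right); points are values of the authors' deposited table and bars 95% intervals read from its p-values. Most points lie left of 0 in both genotypes, 29 of 33 in CDK2-cKO and 26 of 33 in WT-cKO, and most bars cross 0.

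CDK2-cKO and WT-cKO at 48 h share no labelled sample. Of the 33 genes, 28 had the same sign in both, with a Pearson r of 0.467, against 60.7% of well measured genes and an r of 0.301, as a description across genes. The difference CDK2-cKO minus WT-cKO at 48 h was negative for 24 of 33 genes and had a median of -0.09. Among 9526 well measured genes it was negative for 4863, with a median of -0.01. By role within the 33 genes the medians of this difference were -0.19 for the enzymes, 0.10 for the transporters and -0.11 for the synthetase genes. No gene of the 33 had an unadjusted or an adjusted p under 0.05 for it. Of well measured genes 1.56% had an unadjusted p under 0.05, and 0% of all genes passed the Benjamini-Hochberg adjustment. The typical 95% half-width for one gene was 0.515, and a p that misses the threshold does not show that the genotypes responded alike. At 24 h the same difference was negative for 16 of 33 with a median of 0.03, and none had an unadjusted p under 0.05, where 1.6% of well measured genes did. The WT-cKO values at 48 h of 4-OHT and at 48 h over 24 h of DMSO share a DMSO group, and are therefore given only side by side: for Wars, -0.52 under 4-OHT and 0.30 with time, and for Cth, -0.47 under 4-OHT and 0.19 with time, in the authors' deposited table.

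The stress response genes stood lower at 48 h of 4-OHT as well. Of the 18, 15 were negative in CDK2-cKO with a median of -0.46, and 14 in WT-cKO with a median of -0.21, in the authors' deposited table. Trib3 fell by 1.27 in CDK2-cKO (FDR p 1.79e-04) and stood at -0.59 in WT-cKO (FDR p 0.998), by the authors' deposited table. Ddit3 fell by 1.45 in CDK2-cKO (FDR p 0.00358) and stood at -1.04 in WT-cKO (FDR p 0.998), by the authors' deposited table. The genotype difference for Trib3 was -0.68 (-1.29 to -0.07) and for Ddit3 -0.41 (-1.21 to 0.39), each with an adjusted p of 1.00 by the Benjamini-Hochberg adjustment. Atf4 mRNA stood at -0.49 in CDK2-cKO (unadjusted p 0.00142) and at -0.25 in WT-cKO in the authors' deposited table. Atf5, a relative of ATF4 translated under the same stress, stood at -0.75 in CDK2-cKO (FDR p 0.184), by the authors' deposited table.

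Cdk2 mRNA, the target of the knockout, stood at -0.64 in CDK2-cKO and at -0.53 in WT-cKO at 48 h of 4-OHT, and at -0.35 in CDK2-cKO and at 0.26 in WT-cKO at 24 h, in the authors' deposited table. None passed FDR p under 0.05. The Cdk2 difference, CDK2-cKO minus WT-cKO, was -0.61 (95% interval -1.20 to -0.02) at 24 h and -0.11 (-0.72 to 0.49) at 48 h. Neither passed an adjusted p under 0.05 by the Benjamini-Hochberg adjustment. A 3′ tag can lie outside the deleted part, so these values do not check the labels. Under dTAG-13, which acts on protein, Cdk2 stood at 0.06 at 6 h and 0.16 at 24 h in CDK2-dTAG, while Cdk5 in CDK5-dTAG stood at -0.39 at 6 h and at -0.30 at 24 h, in the authors' deposited table. Spermatid transcripts, foreign to duodenum, stood high in WT-cKO at 24 h of 4-OHT, where 5 of 6 such markers passed FDR p under 0.05 with a median log2 fold change of 5.36 in the authors' deposited table. At 48 h of 4-OHT their medians were -0.80 in CDK2-cKO and 1.09 in WT-cKO, with 0 of 6 passing FDR p, in the authors' deposited table. Of these markers 0 of 6 were well measured, with median errors from 1.05 to 1.70. In WT-dTAG at 24 h of dTAG-13 all 6 were negative, with a median of -1.71 in the authors' deposited table. Their part in the values of the amino acid genes was not tested.

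Most of the 33 genes had opposite signs in CDK2-cKO at 48 h of 4-OHT and in WT-dTAG at 24 h over 6 h of DMSO, which have no labelled sample in common. Of the 33 genes, 26 were negative in CDK2-cKO and positive in WT-dTAG, and 3 had the same sign in both. Since 29 of the 33 were negative in CDK2-cKO and 26 positive in WT-dTAG, most had to differ in sign whatever the relation gene by gene. Pearson r across the 33 was -0.687 and Spearman rho -0.707, against -0.206 and -0.204 over the 9526 well measured genes, of which 42.3% had the same sign. Set against the CDK2-dTAG time comparison instead, r was -0.649 across the 33 and -0.146 across well measured genes, and 7 of 33 had the same sign. Both relations are descriptions across genes that were chosen with earlier results known. WT-cKO at 48 h of 4-OHT, where 26 of the 33 were negative too, was not paired with the time comparisons. The opposite signs are therefore not shown to be particular to CDK2-cKO.

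**Figure D4:**
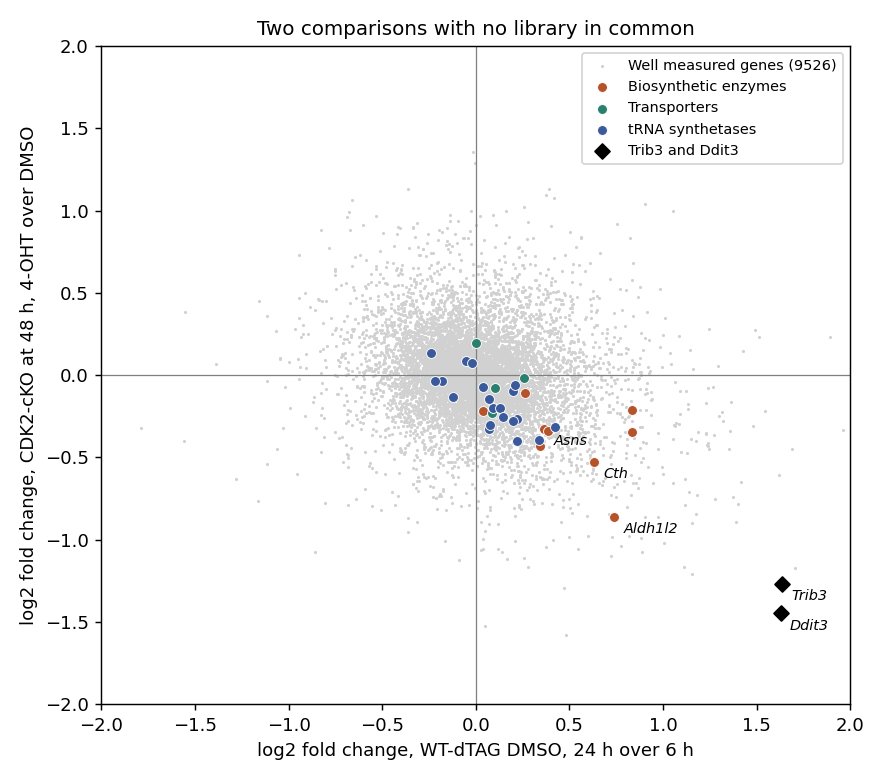
Log2 fold change at 48 h of 4-OHT over DMSO in CDK2-cKO (vertical axis) against that at 24 h over 6 h of DMSO in WT-dTAG (horizontal axis), from the authors' deposited table; grey points are 9526 well measured genes, of which 5 lie outside the axes, and coloured points the 33 genes by role. The enzymes lie to the lower right, as Cth does at 0.63 and -0.53, while r over the grey points was -0.206.

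Genes with the composite site in their promoter window were set beside those without. The 8 genes with TGATGNAA were positive in 7 cases in CDK2-dTAG and in 8 in WT-dTAG at 24 h over 6 h of DMSO, with medians of 0.18 in CDK2-dTAG and 0.23 in WT-dTAG, in the authors' deposited table. The 15 genes with a window and no match were positive in 8 cases in CDK2-dTAG and 11 in WT-dTAG, with medians of 0.02 in CDK2-dTAG and 0.10 in WT-dTAG, in the authors' deposited table. At 48 h of 4-OHT all 8 with the motif were negative in both genotypes, with medians of -0.30 in CDK2-cKO and -0.16 in WT-cKO, in the authors' deposited table. Without the motif, 13 of 15 were negative in CDK2-cKO and 11 of 15 in WT-cKO, with medians of -0.20 in CDK2-cKO and -0.03 in WT-cKO, in the authors' deposited table. By role the motif was present in 2 enzymes and absent from 5, in 1 transporter against 2, and in 5 synthetase genes against 8. These are few genes per role, and the counts carry no test. Among the 5 enzymes with a window and no match, Psph and Mthfd2 stood above most genes that hold the motif at 24 h of DMSO. Of the stress genes, only Trib3, Ddit3, Atf3, Stc2, Chac1 and Sesn2 were looked up. Trib3, Atf3 and Chac1 held the motif in their windows. No match was found for Ddit3, Stc2 and Sesn2, and whether each of them had a window was not recorded.

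The members differed among themselves in how far they ranged over the 13 comparisons. Aldh1l2 ranged widest, 1.60 between its lowest and highest log2 fold change in the authors' deposited table, with the largest error of the 33. Pycr1 ranged over 1.41, Psph over 1.25 and Cth over 1.25 in the authors' deposited table. The widest synthetase gene was Wars at 0.91 and the narrowest Farsb, a subunit of the phenylalanine enzyme, at 0.16, in the authors' deposited table. For 11 genes, of which 5 are enzymes and 6 synthetase genes, some comparison reached an unadjusted p under 0.05, as for 25.3% of well measured genes; the other members, with all 4 transporters among them, reached none.

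For the remaining synthetase genes no comparison gave an unadjusted p under 0.05. Aars, for alanine, ran between -0.39 in CDK2-cKO at 48 h of 4-OHT and 0.34 in WT-dTAG at 24 h over 6 h of DMSO, in the authors' deposited table. Those same comparisons held the lowest value of Nars, for asparagine, at -0.30, and its highest, at 0.08, in the authors' deposited table. Yars, for tyrosine, and Rars, for arginine, had their lowest values, -0.28 and -0.27, in CDK2-cKO at 48 h of 4-OHT, and their highest, 0.27 and 0.22, in CDK2-dTAG at 24 h over 6 h of DMSO, in the authors' deposited table. In all, 17 of the 33 genes had their lowest value in CDK2-cKO at 48 h of 4-OHT, and 17 their highest in either comparison of 24 h with 6 h of DMSO. Vars, for valine, had its highest value, 0.13, in CDK2-cKO at 48 h of 4-OHT in the authors' deposited table. Its lowest, -0.31, was in CDK2-dTAG at 6 h of dTAG-13 in the authors' deposited table. Eprs, whose product charges both glutamate and proline, ran between -0.20 and 0.10, and Mars, for methionine, between -0.26 and 0.18, in the authors' deposited table. Lars, for leucine, ran between -0.20 and 0.17, Qars, for glutamine, between -0.16 and 0.20, and Kars, for lysine, between -0.17 and 0.11, in the authors' deposited table. Tars, for threonine, ran between -0.14 and 0.13 and Iars, for isoleucine, between -0.07 and 0.18, in the authors' deposited table.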

How the data were processed

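RNA from mouse duodenum organoids was prepared with a 3′ mRNA-seq kit (forward), per the labels' protocols, and quantified with Salmon, per the submitters' processing notes. Its build, annotation, normalization, filters, strand setting and statistical test were not given in the sources used here. Per the file headers, the authors' deposited table holds for each gene and comparison the log2 fold change and its linear ratio, with the raw p-value and p-values adjusted by FDR and by Bonferroni. Because missing values are written as text, its columns were recorded here under a general unit. The deposited FDR p-values were checked and equal a Benjamini-Hochberg adjustment over all genes with a value.

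Samples were grouped by their labels, 3 in each of 20 groups. A standard error was computed by dividing the absolute log2 fold change by the z value of its p-value (two-sided), which assumes a Wald-type test that is not stated. Intervals are 95% normal intervals. Genotype differences subtract deposited log2 fold changes, taking both errors as independent, with a normal p (two-sided) and a Benjamini-Hochberg adjustment over all genes, at an adjusted p under 0.05. This calculation was tested on simulated data. Python 3.11.15, pandas 2.3.3, scipy 1.17.1 and matplotlib 3.10.9 were used. Comparisons between genotypes under DMSO, and of time in CDK5-dTAG and CDK2-cKO, were not analysed here. Loci are from GENCODE M21 (GRCm38) and promoter windows from RefSeq (GRCm38.p6).

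The members and gene lists were chosen with earlier results of these data known, so no list was tested as a set. A member was given its values where its unadjusted p was under 0.05, or as one of 5 role examples (Asns, Psat1, Phgdh, Slc7a11, Slc7a5); the values of other members were added after they were seen. A further 59 pathway genes were listed, of which 58 had values; they were named where FDR p was under 0.05, otherwise at most 5 per comparison with the smallest unadjusted p under 0.05. Atf4 where it did not meet this, and spermatid markers, were named after their values were seen. Alternatives were the Bonferroni p-value, an adjustment over genes whose median error was at most 0.5 or at most 1, a t quantile with 4 degrees of freedom, centring, and a weighted mean.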

Additional observations from a re-analysis of the deposited data

How the results depend on the processing

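No paired analysis was possible because values per sample were not analysed here, and for the same reason leaving out single replicates was not run. Depth per sample is unknown, and precision rests on standard errors read from p-values. The count of 0 of the 33 genes called held in all 13 comparisons and 7 differences under every alternative run for it; the lowest adjusted p was 0.136 over genes with a standard error of at most 0.5, 0.153 over those of at most 1, 0.644 for the differences with a t quantile, and 1 for the Bonferroni p-value. A Bonferroni p-value is never below the FDR p-value, so under it a count of 0 had to stay 0. Counts of calls stayed within 1.5 times of their value in 89 cases, which include counts of 0 that stayed 0. A further 3 did not and concern pathway genes that are not among the 33. Under the Bonferroni p-value 2 were called in WT-dTAG at 24 h over 6 h of DMSO, against 4, and 0 in CDK2-dTAG, against 1, while the adjustment over genes with a standard error of at most 0.5 called 2 in CDK2-dTAG. Atf3 and Stc2 in WT-dTAG, and Atf3 in CDK2-dTAG, then had Bonferroni p-values of 0.164, 0.200 and 0.228. The cause was not tested beyond the alternatives' own construction, which is a stricter adjustment or fewer genes tested. Medians by role moved by at most 0.0182 under centring and 0.141 under a weighted mean, which changed the sign of 2 of 39.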

Other observations

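Other genes of amino acid handling showed values not described above. Gpt2, the mitochondrial alanine aminotransferase, stood at 1.01 in CDK2-dTAG at 24 h over 6 h of DMSO (unadjusted p 0.00193, FDR p 0.773), by the authors' deposited table. It stood at 0.47 in WT-dTAG at 24 h over 6 h of DMSO, and at -0.58 in CDK2-dTAG at 24 h of dTAG-13, in the authors' deposited table. In CDK2-cKO at 48 h of 4-OHT Gpt2 stood at -0.59 (unadjusted p 0.0338; FDR p 0.996), and Got1, the cytosolic aspartate aminotransferase, at -0.55 (unadjusted p 0.00329; FDR p 0.996), by the authors' deposited table. Glul, which makes glutamine from glutamate and ammonia, stood at 0.43 there (unadjusted p 0.0147, FDR p 0.996) and at 0.39 at 24 h of 4-OHT (unadjusted p 0.0264, FDR p 0.990), by the authors' deposited table. In WT-cKO at 48 h of 4-OHT Got1 stood at -0.37 and Glul at 0.31, the same signs as in CDK2-cKO, with Gpt2 between them (authors' deposited table). None of these had an unadjusted p under 0.05 in WT-cKO. At that p 2.81% of well measured genes were lower and 1.33% higher in CDK2-cKO at 48 h.

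The 17 mitochondrial tRNA synthetase genes, whose enzymes charge tRNA inside mitochondria, had medians between -0.08 in WT-dTAG at 24 h of dTAG-13, with 13 of 17 negative, and 0.13 in WT-dTAG at 6 h of dTAG-13, with 10 of 17 positive, over the 13 comparisons of the authors' deposited table. Their median log2 fold change was -0.01 in CDK2-dTAG and -0.04 in WT-dTAG at 24 h over 6 h of DMSO, with 8 of 17 positive in each, in the authors' deposited table. At 48 h of 4-OHT their medians were 0.06 in CDK2-cKO and 0.01 in WT-cKO in the authors' deposited table. Wars2, for mitochondrial tryptophan, stood at 0.93 at 24 h over 6 h of DMSO in WT-dTAG (FDR p 0.901) and at 1.05 at 6 h of dTAG-13 in WT-dTAG (FDR p 0.997), by the authors' deposited table. Both values use the WT-dTAG group at 6 h of DMSO. Of 8 other amino acid transporters, all were positive in CDK2-dTAG at 24 h of dTAG-13 with a median of 0.14, and 3 in WT-dTAG with a median of -0.01, in the authors' deposited table, and none had an unadjusted p under 0.05 in either.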
